A study of Mus musculus with 9 samples.

Results

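Intragenic accessible islands were stretches of nuclease-accessible chromatin that lay in the body of a protein-coding gene, away from transcription start sites (TSS). They were taken from TACh-seq of mouse embryonic fibroblasts (MEFs), an assay in which nuclei are digested briefly with the nuclease Cyanase and the short fragments released from accessible DNA are sequenced. The 4881417 deposited read positions were merged across gaps of at most 600 bp into 26043 islands. An island was retained when it had at least 20 reads, a midpoint inside a protein-coding gene of the RNA-seq table, and a distance of over 5 kb from that midpoint to every TSS of the table. This left 7649 islands in 3489 host genes. Because read counts and position chose the islands, these values are given as a description only.

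The TACh-seq samples were 2 of wild-type (WT) MEFs and 2 of KOKD MEFs, which lack Fubp1 and have Fubp2 knocked down. By the treatment protocol, primary MEFs received 100 nM of siRNA for 48 h, against Fubp2 or non-targeting. FUBP1 and FUBP2 are single-strand DNA-binding proteins that act on the Myc gene. All 4 samples point to 1 table without a library column, whose name refers to a WT sample although the KOKD samples cite it too, so an island here is pooled over an unknown number of libraries, WT and KOKD MEFs were not compared, and no replicate error can be attached to read counts. Expression came from other cells, primary Myc-Egfp+/+ MEFs treated with 20 µM of the proteasome inhibitor MG-132 for 6 h, sorted into low-MYC and high-MYC fractions by GFP and grown overnight (2 technical replicates each). Its unit was spike-in-normalized FPK, fragments per kilobase divided by a score of RNA standards added per cell, and the depth of the 4 libraries is unknown. The deposited FUBP1 ChIP-seq peaks of untreated primary MEFs (1 sample) lie on chromosome 15 and were used there. The paper also reports FUBP1 binding across many other genes, and some cross-reaction of the ChIP antibody with FUBP2. Fibroblast markers were abundant in the expression data, with a mean of 252 for Vim, 98.9 for Thy1 and 86.6 for Col1a1. Summed over the marker lists, 3 endothelial genes had 0.164 to 0.303 in the 4 libraries, mostly from Kdr, 3 epithelial genes 0.00524 to 0.0651, and 3 neural genes 2.31 to 6.61, mostly from Tubb3, and the muscle marker Des had 1.68 to 3.56.

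In differentiated cells most accessible sites outside promoters are enhancers or insulators, stretches where transcription factors displace nucleosomes. Many lie in introns, and an intronic site may act on its host gene or on a more distant one. In fibroblasts such sites are known to be bound by AP-1, dimers of FOS and JUN proteins, together with TEAD factors of the Hippo pathway and RUNX factors, whereas CpG-rich promoters are bound by SP/KLF, ETS and NRF1 factors.

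The AP-1 letters TGANTCA, where N is any base, had the highest share in intragenic islands of the 9 motifs searched, so 8 examples are printed. They came from the 10 islands with the most reads that had an AP-1 match within 50 bp of the point of highest read depth, 1 per host gene, from the plus strand of GRCm38 (mm10) as 30 bases 5′ to 3′. The capitals mark the AP-1 letters. The windows of Mroh2a and Emp1 are left out, because the first lay past the end of its host and the other 244 bp from a TSS, although the island midpoints met the rule. The other 8 lay in their host and over 5 kb from every TSS of the table, and that of Plec was 618 bp from the start of another annotated transcript. Among all intragenic islands the point of highest depth was within 5 kb of a TSS in 71 and outside the host in 45.
Plec (chr15:76196313-76196342): atagctcagtggTGACTCAtcccagcaggg
Pmepa1 (chr2:173263789-173263818): ttcctcaagacaTGACTCAcatctgtctgg
Actn1 (chr12:80229248-80229277): gacacaagagaaTGATTCAacttaatcctg
Rara (chr11:98942760-98942789): cgagcctctcccTGATTCAgcaagccctgt
Bahcc1 (chr11:120257039-120257068): ctgcttccctacTGAGTCAccctgtgtttg
Phldb2 (chr16:45838064-45838093): ccaaggtcatggTGAATCAtctcagccaaa
9-Sep (chr11:117315397-117315426): gcaggctgcagaTGAATCAgagaatgttga
Smyd3 (chr1:179042201-179042230): ttagattagagcTGACTCAcagacagctcc
The letters at the centre differed between examples, with TGACTCA in Plec, Pmepa1 and Smyd3, TGAGTCA in Bahcc1, TGATTCA in Actn1 and Rara, and TGAATCA in Phldb2 and 9-Sep. The name 9-Sep is a date-like form in the table, and its coordinates are those of Sept9, a septin gene. Pmepa1, a TGF-β target, Actn1, an actin crosslinker, and Plec, a cytoskeletal linker, each had the AP-1 letters of the window in the first intron. Among all intragenic islands the windows searched held TGACTCA 1614 times and its reverse complement TGAGTCA 1635 times, TGATTCA 496 times and its reverse complement TGAATCA 485 times.

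The AP-1 letters were present in 3428 of 7649 intragenic islands, 44.8% (43.7 to 45.9, exact 95% Clopper-Pearson interval, counting error only), when a 300-bp window around the point of highest depth was searched on both strands. In promoter islands, with a midpoint within 1 kb of a TSS, the share was 6.39% (5.85 to 6.96) of 7672. In intergenic islands, over 5 kb from every TSS and in no gene, it was 49.1% (48.0 to 50.3) of 7521. Windows 3 kb to either side of the same intragenic points, kept where they touched no island, held the letters in 8.02% (7.56 to 8.51) of 12873. Over all islands with at least 20 reads the share was 32.2%. The share in intragenic islands was thus slightly below that in intergenic ones and several-fold above those in promoters and in their own flanks.

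The other motifs fell into those more common in intragenic than in promoter islands and those less common. GGAATG, the letters of TEAD factors, occurred in 30.7% of intragenic, 34.2% of intergenic and 12.1% of promoter islands, against 15.2% of flanks. TGTGGT, the letters of RUNX factors, occurred in 29.4% of intragenic, 30.4% of intergenic and 11.7% of promoter islands, against 22.4% of flanks. The AP-1 and TEAD letters were found together in 980 intragenic islands (12.8%), and the TEAD letters were in 28.6% of those with an AP-1 match and in 32.4% of those without. GGGCGG, the letters of SP/KLF factors, occurred in 13.2% (12.5 to 14.0) of intragenic, 8.32% (7.71 to 8.97) of intergenic and 66.1% of promoter islands. CCGGAAG, of ETS factors, occurred in 2.30% and 20.3%, respectively, and GCGCATGCG, of NRF1, in 0.392% and 4.17%. CNAGGNGGC, part of the motif of the insulator protein CTCF, was in 5.60% of intragenic, 13.4% of promoter and 4.44% of intergenic islands. CACGTG, the E-box bound by MYC and MAX among other factors, was in 4.41% of intragenic islands, near the 3.93% of their flanks, and in 10.0% of promoter islands. A match is a run of letters and not a measured binding site, and the classes also differed in base composition. The median GC content of the window was 48.0% in intragenic, 63.0% in promoter and 46.3% in intergenic islands, and an observed-to-expected CpG ratio above 0.6 was found in 7.69%, 78.8% and 4.92% of them.

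**Figure D1:**
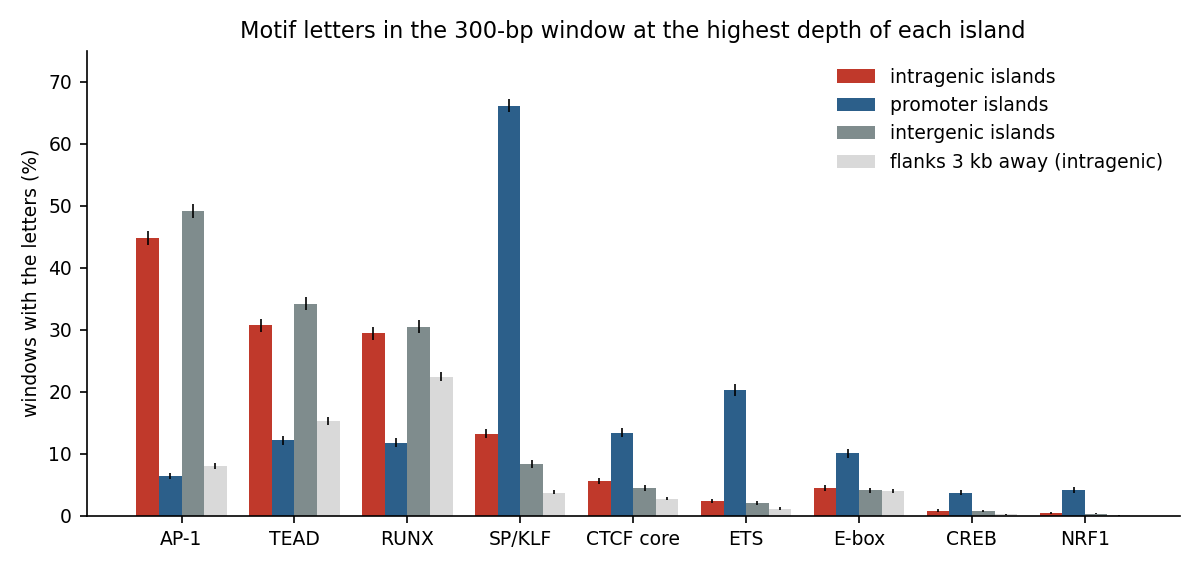
Share of 300-bp windows (y axis, %) with the letters of each of 9 motifs (x axis) in intragenic, promoter and intergenic islands and in flanks of the intragenic islands; lines are exact 95% intervals for counting error. For AP-1 the intragenic bar stands at 44.8%, the intergenic at 49.1% and the promoter at 6.39%, and for SP/KLF they stand at 13.2%, 8.32% and 66.1%.

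The AP-1 matches were concentrated at the point of highest depth. In intragenic islands the 50-bp bin at that point held 141 matches per 1000 islands, and the bins 500 bp away held 17.1 and 17.6. In promoter islands the central bin held 16.3 matches per 1000 islands. Beyond 150 bp on either side the bins of intragenic islands held at most 28.6 matches.

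**Figure D2:**
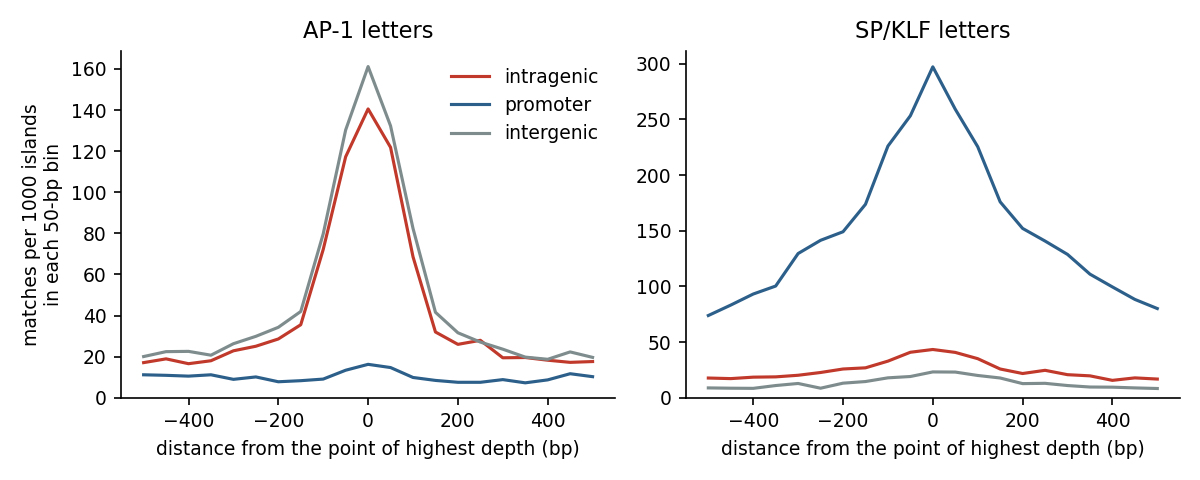
Matches per 1000 islands in 50-bp bins (y axis) against the distance from the point of highest read depth in bp (x axis), for AP-1 letters (left) and SP/KLF letters (right). The AP-1 line of intragenic islands rises from 17.1 at the left edge to 141 at the centre, and the promoter line stays at or below 16.3.

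The intragenic islands held 25.4% of the reads. They had a median of 129 reads (5th to 95th percentile 74 to 350) and a median width of 2492 bp (interquartile range 1691 to 3649). The median depth at the highest point was 19 reads. Promoter islands had a median of 181 reads, a width of 2635 bp and a depth of 28 reads, and intergenic islands a median of 120 reads, 2154 bp and 20 reads. The minimum of 20 reads removed almost nothing, since only 33 islands of the table lay below it, 8 of which otherwise met the rule. The members with the fewest reads had 25 (Itch), 34 (Rcan1) and 53 (Arhgap32), and the nearest islands outside had 9, 6 and 5. At the distance limit, members lay 5004, 5007 and 5016 bp from a TSS, and excluded islands 4992, 4991 and 4991 bp. Only 75 intragenic islands were on the X chromosome and 0 on the Y chromosome.

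Of the 10 islands with the most reads, 8 were over 10 kb wide, and several lay in genes of the cytoskeleton or matrix. The island with the most reads, 2847, spanned 25121 bp of Plec at chr15:76186854-76211974, and its point of highest depth was 88 reads deep. Myh9, nonmuscle myosin heavy chain, held an island of 34581 bp with 1946 reads at chr15:77808767-77843347. Synpo, an actin-associated protein, held one of 31242 bp with 1988 reads. Col1a1, a chain of type I collagen, had 1548 reads over 20644 bp, Zyx, a focal adhesion protein, 1434 reads over 17939 bp, Csf1, a growth factor of macrophages, 1358 reads over 31066 bp, and Amotl2, a regulator of Hippo signalling, 1340 reads over 25475 bp. The islands in Myh9, Col1a1, Zyx, Csf1 and Amotl2 also covered a TSS, since only the midpoint was required to be distant. In each of these islands the point of highest depth, where motifs were searched, was within 1 kb of the host's TSS. The midpoint of the Plec island lay 8 bp from the start of another annotated transcript. In all, 21 islands (0.275%) covered a TSS, and 7367 islands lay over 5 kb from every TSS along their whole extent. Only 89 islands (1.16%) exceeded 10 kb, and 29.2% (20.1 to 39.8) of these had the AP-1 letters.

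Others among the 10 were of a different kind. The widest island, 58990 bp with 2476 reads, covered all of Mroh2a (mean normalized FPK 0.0413) and was only 25 reads deep, with 78.2% of reads at the highest mapping score, 42. The island in Chl1, a neural adhesion gene with a mean of 0.00461, held 2207 reads in 419 bp at chr6:103649049-103649467, and 0.498% of them had that score. Bowtie2 gives a lower score to reads with mismatches or another possible placement. The depth of the Chl1 island, 1929 reads, was the highest of all intragenic islands. The island in Ppp2r3d, with 1272 reads over 4401 bp, had 88.1% at the highest score. In 45 intragenic islands, under 50% of the reads had the highest score.

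By the transcript with the most exonic bases of each host gene in GENCODE M21, 6162 islands had their midpoint in an intron (80.6%, 79.7 to 81.4), against 80.9% of the territory that could hold one, which is gene body over 5 kb from every TSS. There were 9.45 islands per Mb over 810 Mb of such territory. The first intron held 1973 islands, 25.8% (24.8 to 26.8) against 19% of the territory, or 12.9 per Mb compared with 8.36 per Mb in other introns. Coding exons held 119 islands (6.40 per Mb), 3′ UTRs held 122 (6.27 per Mb), and 1105 (14.4%) lay in the gene but outside that transcript. The 68 islands in 5′ UTRs were 0.889% of islands in 0.0592% of the territory, or 142 per Mb. These 68 were promoter-like in sequence: 13.2% (6.23 to 23.6) had the AP-1 letters, 58.8% (46.2 to 70.6) the SP/KLF letters, and the median GC content was 62.8%.

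The table gives 1 TSS per gene, the outermost, so internal promoters were retained. A midpoint lay within 1 kb of the start of some annotated transcript in 1148 islands (15%), and within 5 kb in 2530 (33.1%). In the 1148 the SP/KLF letters occurred in 39.1% (36.3 to 42) and the AP-1 letters in 26.8% (24.3 to 29.5), and the median GC content was 56.0%. In the 5119 islands over 5 kb from every annotated start the SP/KLF letters were in 7.07% (6.38 to 7.81), the AP-1 letters in 48.5% (47.1 to 49.8), and GC content was 46.7%. The CTCF letters were in 10.3% of the former and 4.41% of the latter. Depth also went along with the AP-1 share, which was 37.6% (35.6 to 39.7) in islands at most 15 reads deep and 47.8% (45.5 to 50.2) in those at least 27 reads deep.

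Along the host, the midpoint was a median of 57216 bp from the TSS (interquartile range 22537 to 139327) and at 49.7% of the gene length. Density was 11.2 islands per Mb from 5 to 10 kb, 11.1 from 10 to 20 kb, 10.3 from 20 to 50 kb, 10.5 from 50 to 100 kb, 9.28 from 100 to 200 kb and 6.66 beyond 200 kb. By position along the gene, 401 islands lay in the 10% of the length nearest the TSS, 931 from 30% to 40% and 677 from 90% to 100%. Bases within 5 kb of a TSS could hold no midpoint by the rule.

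Most hosts held 1 island (1954 of 3489), 1164 held 2 to 4, and 371 held 5 or more. The latter had 35.4% of all intragenic islands and a median length of 266331 bp, compared with 53011 bp for hosts of 1 island. The share of protein-coding genes with an island was 11.7% at 10 to 30 kb, 32.2% at 30 to 100 kb and 67.2% above 100 kb. Several of the highest counts were in genes of over 1000 kb, though other genes of that length held few. Gm20388 held 51 islands, but it is a gene model of 4435 kb that runs over other genes. Fgfr2, a fibroblast growth factor receptor, held 24 in a span of 2961 kb, 20 of them outside its transcript with the most exonic bases. Pde4d, a cAMP phosphodiesterase, held 24 (23 outside), and Lrmda 19 (16 outside). Lpp, a focal adhesion protein, held 19 islands in 599 kb, all within that transcript and at 32.5 islands per Mb. Dnm3 (dynamin 3), Prkg1 (a cGMP-dependent kinase), Rbms3 (an RNA-binding protein) and Zfhx3 (a homeodomain factor) each held 16, and Auts2 held 15. Of these hosts, only Lpp had a mean normalized FPK of at least 0.1 (0.969). An island inside 2 genes was given to the one with the nearer TSS, which applied to 172 islands, and 2 lay in the overlapping models of a protocadherin cluster with 21 hosts.

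Island density was higher in genes with higher expression. It was 6.81 islands per Mb in genes under a mean normalized FPK of 0.1, 12.7 at 0.1 to 1, 15.1 at 1 to 10 and 29.6 at 10 and over, for protein-coding genes over 10 kb. The same order was seen within genes over 100 kb, at 6.60, 14.9, 26.6 and 46.0 islands per Mb, the last from 18 islands in 3 genes. Among genes of 10 to 30 kb it was 9.28, 10.5, 9.65 and 26.4, so that the 3 lower levels did not follow this order. As a share of genes, pooled over length, the pattern was different. A mean of at least 0.1 was found in 60.7% (59.0 to 62.3) of host genes, against 65.3% (64.4 to 66.1) of all 11395 protein-coding genes over 10 kb. Long genes were mostly weakly expressed, with 1386 of 2226 genes over 100 kb under 0.1, and the part of length in this difference was not tested. Of the islands themselves, 4319 were in expressed hosts and 3330 in hosts under 0.1. The AP-1 share was 43.3% (41.8 to 44.8) in the former and 46.8% (45.1 to 48.5) in the latter, and the median width was 2789 bp and 2207 bp. Genes in a class are not independent of one another in length or position, so these densities are a description without a test.

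**Figure D3:**
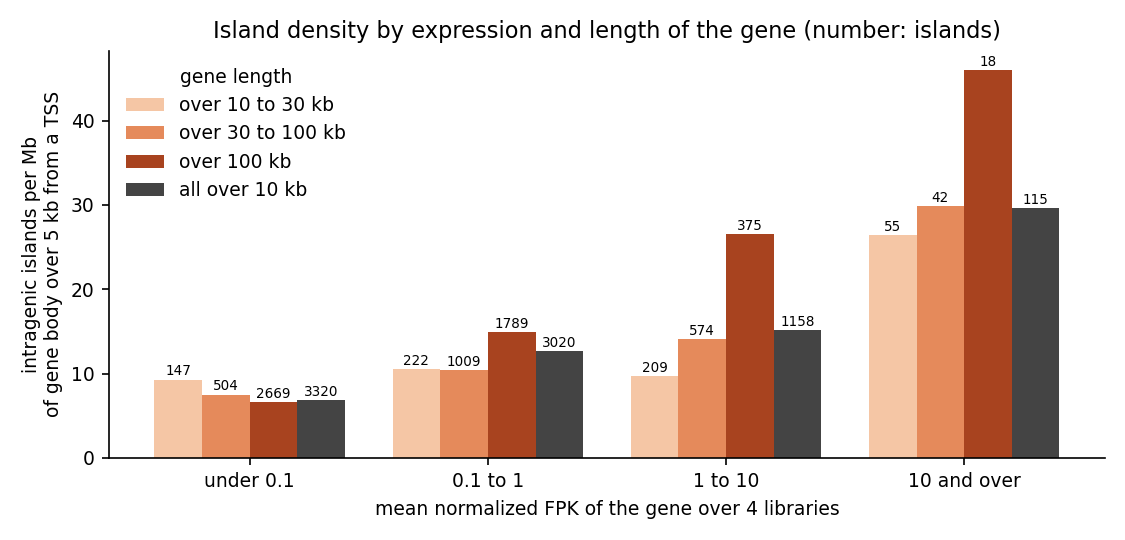
Intragenic islands per Mb of gene body over 5 kb from a TSS (y axis) for protein-coding genes grouped by mean normalized FPK (x axis) and length (colours); the number on each bar counts its islands. Density over all lengths rises from 6.81 below 0.1 to 29.6 at 10 and over, and the highest bar, 46.0, rests on 18 islands.

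Among lists of genes grouped by role, islands were densest in genes of adhesion and sparsest in neuronal genes. Of 29 adhesion and cytoskeleton genes over 10 kb, 25 (86.2%, 68.3 to 96.1) held 129 islands, at 36.5 per Mb. Lpp had 19, Tns1 15, Palld 13, Tns3 12 and Itgb5 8. Tensins (Tns1, Tns3) link integrins to actin, palladin (Palld) organizes actin, and Itgb5 is an integrin chain. The deepest island in Palld, 56 reads, lay 314431 bp from the TSS in intron 10 at chr8:61583943-61592576. Flna, Itgb1, Pdlim7 and Tln1, all below 50 kb in length, held none. Zyx, Tpm1 and Pxn, also below 50 kb, held 1, 1 and 3. Of 20 genes of TGF-β and Hippo signalling, 15 held 57 islands (31.2 per Mb), with 12 in Ltbp1, which binds latent TGF-β, 10 in Smad3, a signal transducer, and 8 in Tead1. Of 24 transcription factor genes 22 held 131 islands (24.4 per Mb), with 15 in Foxp1, 12 in Nfib, and 10 each in Runx2, a factor of bone development, and Glis3. These factor genes had a median normalized FPK of only 0.159.

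Among 29 matrix genes, 16 held 54 islands (23.6 per Mb), with 7 each in Fbn1 (fibrillin 1) and Col4a2 and 6 each in Col5a1 and Col8a1. Thbs1, Lox and Fn1, with mean normalized FPK values of 877, 125 and 66.8, had none, and their lengths were 15, 14 and 68 kb. Longer matrix genes without an island were Col5a2 (128962 bp, mean 9.26), Col11a1 (190179 bp, 0.421) and Fbn2 (201865 bp, 0.0828), among others. Col1a1, of 16819 bp, held 1. Of 18 receptor genes 16 held 89 islands (18.9 per Mb), with 24 in Fgfr2, 9 in Egfr and 9 in Igf1r. The span of Fgfr2 made up 2.71 of the 4.70 Mb and held 8.85 islands per Mb, so it lowered the density of this list. No density of the list without Fgfr2 is given. By contrast, 20 neuronal genes, with a median length of 1098 kb and a median FPK of 0.000224, held 42 islands or 1.73 per Mb, although 14 of the 20 (70%, 45.7 to 88.1) held at least 1. Dlgap1, a synaptic scaffold gene, had 5, and Csmd1, Dcc, Dpp6, Erbb4, Il1rapl1 and Robo2 had none. Of 11 macrophage genes 4 held 12 islands (6.18 per Mb), namely Elmo1, Fyb, Csf1r and Lyn. The AP-1 share was 41.2% to 43.9% of the islands in the matrix, adhesion, TGF-β and Hippo, receptor and transcription factor lists. It was 57.1% of the neuronal islands (24 of 42) and 83.3% of the macrophage islands (10 of 12, with 6 of the 12 in Elmo1). The last 2 shares rest on few islands and are given without an interval. The lists were chosen with results of these data known, and over all protein-coding genes over 10 kb the density was 9.45 per Mb and 30.3% held an island.

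**Figure D4:**
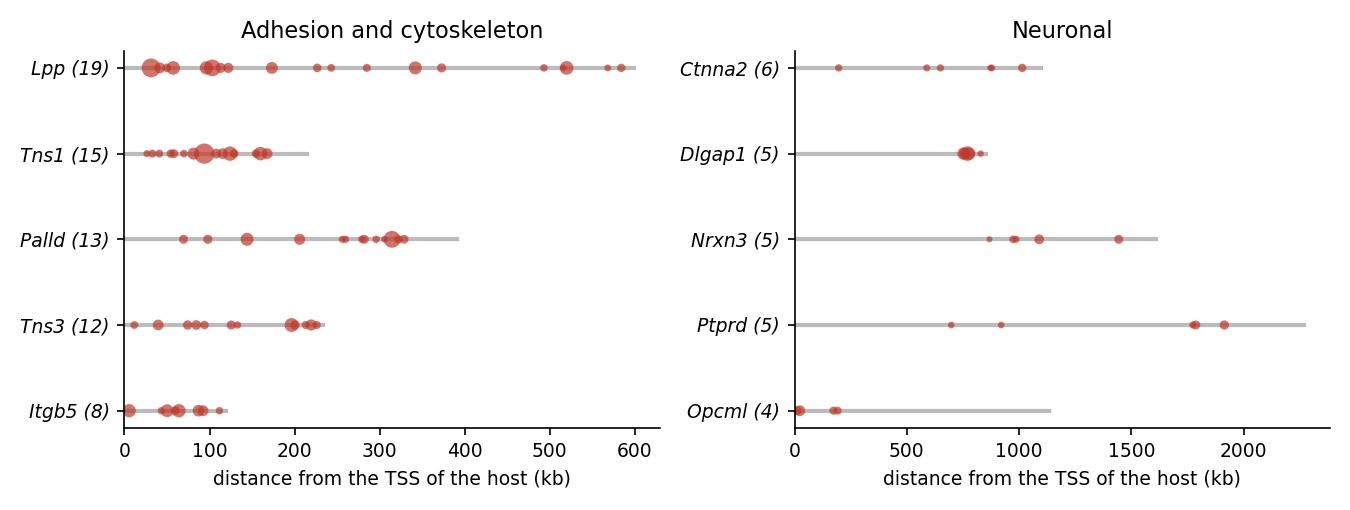
Position of each intragenic island (points, area in proportion to reads) as distance from the TSS of its host in kb (x axis) in 5 adhesion genes (left) and 5 neuronal genes (right) among those with the most islands; grey lines give gene length and brackets the number of islands. Lpp holds 19 islands in 599 kb, whereas Ctnna2 holds 6 in 1098 kb, and the x axes differ.

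The hosts were next compared between high-MYC and low-MYC cells, to see whether genes with islands responded differently from others. On the spike-in scale limma called 950 of 2117 tested hosts higher by 2-fold or more in the high-MYC group (Benjamini-Hochberg adjusted p under 0.01), 44.9% (42.7 to 47.0), against 55.1% of all 11870 genes tested and 54.3% (53.0 to 55.7) of genes over 10 kb without an island. Replicates were technical, so these calls compare the libraries and not separate cultures. The median log2 difference was 0.97 in hosts and 1.03 in all genes, so the threshold lay in the middle of the distribution. By limma 0 of 2117 hosts were lower by 2-fold or more, as were 0 of all 11870 genes tested. At an unadjusted p under 0.05 by limma, 2115 hosts differed, against 11695 of all 11870 genes, so nearly every gene differed. Within a range of expression the shares were close: 26.3% (24.0 to 28.6) of hosts and 28.2% of all genes at an FPK of 0.1 to 1, 82.2% (79.0 to 85.2) and 83.7% at 1 to 10, and 90.5% (81.5 to 96.1) and 92.6% at 10 and over. The median FPK was 0.592 in tested hosts and 0.896 in all genes tested, and with a pseudocount of 0.1 on the log2 scale a low value gives a smaller fold change. With a pseudocount of 0.01 the count of hosts was 1814, and with 1 it was 136. No share of all genes is given for these pseudocounts, so the counts show only how the host count moved.

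**Figure D5:**
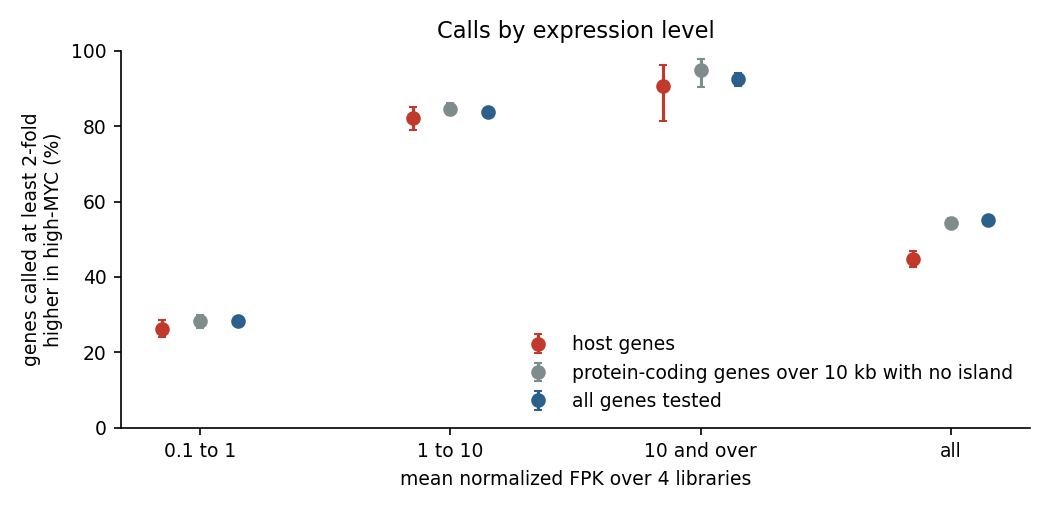
Share of genes that limma called higher by 2-fold or more in the high-MYC group (y axis, %) by mean normalized FPK (x axis) for host genes, genes over 10 kb without an island and all genes tested; bars are exact 95% intervals for counting error. Over all levels hosts lie at 44.9% and all genes at 55.1%, and within each level the intervals of hosts and genes without an island overlap.

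Lpp, Plec and Myh9 are examples of hosts with many reads or islands. Lpp had 0.541 and 0.621 in the low-MYC and 1.27 and 1.44 in the high-MYC libraries, a log2 difference of 1.10 (standard error 0.0865, adjusted p = 5.86e-05, limma with Benjamini-Hochberg adjustment). Plec had 4.94 and 5.19 in low-MYC and 11.5 and 11.4 in high-MYC cells, a log2 difference of 1.16. Myh9 had 15.2 and 15.2 in low-MYC and 33.9 and 34.0 in high-MYC cells, a log2 difference of 1.15. In each of these hosts the difference was near that of the median gene.

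When the libraries were scaled to a common median, 47 hosts (2.22%, 1.64 to 2.94) were higher in high-MYC cells against 1.76% of all genes, and 9 (0.425%, 0.195 to 0.805) were lower against 0.531% (limma, Benjamini-Hochberg adjusted p under 0.01). The shares of hosts were thus near those of all genes. Some hosts called higher, Ms4a7, Csf1r, Upk1b and Tgfbr3 among them, reached the mean of 0.1 needed for testing only through the high-MYC libraries. The share called higher is therefore a description and not a test. These calls rested on all 4 libraries. Both counts fell when any 1 library was left out, but such a fit has no spread within the group of 1. No share of all genes is given for those fits, so the fall is not a result about hosts. The largest rises, in rescaled units, were those of Ms4a7, a myeloid membrane gene, and of Lars2, the mitochondrial leucyl-tRNA synthetase. Ms4a7 went from 0 and 0.000860 to 0.161 and 0.165, a rescaled log2 difference of 1.39. Lars2 went from 2.28 and 2.26 to 4.84 and 4.74, a difference of 1.04 (adjusted p = 0.00163, limma). Csf1r, the receptor of CSF1 on macrophages, rose by 1.02 on the rescaled log2 scale, Il1rl1, the IL-33 receptor, by 0.96, and Upk1b, a uroplakin, by 0.93. Before rescaling, Ms4a7, Csf1r and Upk1b averaged 0.000289, 0.0337 and 0.0183 in the low-MYC libraries. These 3 genes reached the mean of 0.1 needed for testing only through the high-MYC libraries. Their rises are therefore a description and not a test. On the spike-in scale all 9 fibroblast markers were higher in both high-MYC than in both low-MYC libraries. Their summed normalized FPK was 337 and 342 in low-MYC and 804 and 821 in high-MYC libraries. The muscle marker and 2 of 3 genes each of the endothelial, epithelial and neural lists were higher too. So were all 5 macrophage markers (Lyz2, Cd68, Csf1r, Adgre1, Ptprc). The macrophage sum was 0.613 and 0.839 in low-MYC and 22.6 and 24.0 in high-MYC libraries. Of these, Lyz2 had a normalized FPK of 0.0305 and 0.142 in low-MYC and 18 and 18.9 in high-MYC libraries, and Cd68 0.549 and 0.661 against 4.27 and 4.72, while Adgre1 and Ptprc were at most 0.0327 in every library. Their part in the rise of Ms4a7 and Csf1r was not tested, and fewer cells of a type and less RNA per cell cannot be told apart in bulk RNA.

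Among the hosts lower after rescaling, Dusp4, a phosphatase of MAP kinases, had rescaled values of 4.04 and 4.13 in low-MYC and 2.17 and 2.10 in high-MYC cells, a log2 difference of -0.90 (adjusted p = 0.00223, limma with Benjamini-Hochberg adjustment). Nr4a1, a nuclear receptor induced by growth signals, had -0.74, Fgd3 -0.55, Plaur, the urokinase receptor, -0.50 and Dusp1, another MAP kinase phosphatase, -0.41. On the spike-in scale all 5 were higher in high-MYC cells, with log2 differences of 0.24 to 0.66, so their direction depends on the scaling.

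On chromosome 15, 12 of 331 intragenic islands (3.63%, 1.89 to 6.25) overlapped a FUBP1 peak by at least 1 base, compared with 4.52% (2.49 to 7.46) of 310 promoter and 1.38% (0.449 to 3.18) of 363 intergenic islands. Over all 1154 islands of the chromosome the share was 3.47% (2.49 to 4.69), close to the intragenic one. The midpoint itself lay in a peak in 9 intragenic islands (2.72%), and peaks covered 1.24% of the bases where such a midpoint could lie. The 12 islands lay in 8 hosts. All 12 were among the 221 islands in expressed hosts, 5.43% (2.84 to 9.29), and 0 of 110 in hosts under 0.1, which allows a share of up to 2.73% by 3 counts of the total and 3.30% by the exact interval. Myh9 had the islands with the most reads among the 12, the one of 34581 bp touching 3 peaks and another of 16025 bp touching 2. Rbfox2, a splicing regulator, Rpl3, a ribosomal protein, and Asap1, an ARF GTPase-activating protein, followed with 600, 443 and 303 reads. The Myh9 and Rpl3 islands were over 10 kb wide, and a wide island has more room to meet a peak. Some of these islands also reached promoters. The wider Myh9 island covered a TSS, and its point of highest depth, 77842388, lay outside the host, whose TSS is at 77842175. The midpoints in Rpl3 and Rbfox2 lay 68 and 982 bp from an annotated transcript start. Those of the other Myh9 island and of Asap1 lay 13771 and 16415 bp from one.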

How the data were processed

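TACh-seq (4 samples), FUBP1 ChIP-seq (1 sample) and RNA-seq (4 libraries) were analysed from the processed files, with groups taken from the sample labels. The authors trimmed low-quality bases, used Bowtie2 to align TACh-seq and ChIP-seq reads to mm10 and SICER to call peaks (versions not given in the sources used here). The deposited TACh-seq table gives read positions, a strand and a mapping score per read, with 19.1% of reads at a repeated position and strand, and it appears limited to called regions. The deposited FUBP1 peaks have no score. The deposited RNA-seq signal is FPK divided by the authors' spike-in score. Reads of paralogous or overlapping genes may be split between them in this signal.

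Islands were merged, placed and searched for motif letters in Python 3.11.15 (numpy 2.4.6, pandas 2.3.3, scipy 1.17.1, matplotlib 3.10.9) with the GRCm38 sequence and GENCODE M21. Gene ends in the table, 1 base past the annotation's, were corrected, and 76 of 15118 protein-coding genes were matched by coordinates because their listed names were not in the annotation. log2(normalized FPK + 0.1) was compared with limma 3.58.1 in R 4.3.3 (trend, Benjamini-Hochberg adjustment) where the gene's mean over the 4 libraries reached 0.1. A second fit divided each library by its median. Merging and limma were tested on simulated data. Islands and genes were named by rank in reads, width, number of islands, fold change or list membership. One gene that met this rule is not reported here. Examples outside these ranks (Thbs1, Lox, Fn1, Col5a2, Col11a1, Fbn2, Tpm1, Pxn and marker genes) were chosen after their values were seen. Members and lists were chosen with earlier results of these data known. Alternatives covered merging, thresholds, windows, mapping score, pseudocount, filter, scaling, block and single libraries. Intervals cover counting error only. All sample columns were assigned.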

Additional observations from a re-analysis of the deposited data

How the results depend on the processing

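The number of intragenic islands stayed within 1.5 times 7649 under every alternative, from 5119 over 5 kb from every annotated transcript start to 8808 with a gap of at most 200 bp. With that gap the median width was 2055 bp and the AP-1 share 42.2%. With a distance of over 10 kb, 81.8% of islands lay in introns, 24.2% in the first intron, and 57.2% of hosts were expressed. With over 2 kb, the median width was 2579 bp, the intron share 79.5%, the first-intron share 27.8%, the AP-1 share 42.7% and the expressed share 63.4%. Over 5 kb from every annotated start, the width was 2420 bp, the intron share 84.1%, the AP-1 share 48.5% and the expressed share 54.7%. With the point of highest depth in place of the midpoint, the intron share was 79.2% and the first-intron share 24.3%. The AP-1 share was 32.5% in windows of 150 bp and 53.2% in windows of 600 bp, and 36.5% when only C or G was allowed at the centre, an alternative chosen after seeing the data. At a mean of at least 1, 19.9% of hosts were expressed, and at 0.01, 82.1%. Other minimums of reads, removal of repeated positions, the highest mapping score and, chosen after seeing the data, the whole extent over 5 kb, islands mostly below that score left out, and Gm20388 and Fgfr2 left out kept every value within its interval.

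The counts of hosts called under the following alternatives have no share of all genes beside them. For hosts at least 2-fold higher (950), the pseudocounts gave 1814 and 136, a minimum mean of 1 gave 576, and rescaling to the same median gave 3. Without 1 library they ranged from 789 to 1115, where the lone sample is assumed to vary like the other group. After rescaling, hosts higher ranged from 0 to 10 and hosts lower from 0 to 2 without 1 library. Without a minimum mean they were 5 and 1, and with a minimum of 1, 35 hosts were lower. With a replicate block 950 hosts were at least 2-fold higher, and 0 were higher and 0 lower after rescaling. Same-numbered libraries share only a number (correlation of deviations 0.0810 over 11870 genes), so the block is given only here. The unknown number of TACh-seq libraries and the unknown RNA-seq depth limit every value above. Islands cannot be given a replicate error, and accessibility and expression come from different cells.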
